A study of Mus musculus with 6 samples.

Results

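Cytosolic ribosomal proteins form the protein part of the ribosome, and 41 genes for them were measured in the mammary gland of normal mice and of Elf5 knockouts (KO). Members were all genes whose only annotated symbol was Rps or Rpl with a number and, for some, a final a or x, or was Rplp0, Rplp1 or Rplp2. Of 18193 genes with a probe set, 41 met this rule, 19 of the small (40S) and 22 of the large (60S) subunit. They had 92 probe sets on the array, and the one with the highest mean log2 signal over the 6 arrays stood for its gene. Rplp1, Rpl5 and Rps27a were not analysed here.

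Total RNA was taken from mammary tissue, with 3 biological replicates for wild type and 3 for the KO, each on 1 one-colour Affymetrix array; whether a replicate was 1 animal or a pool was not stated. Sample labels place all glands at day 17 of pregnancy, but the text on the series gives day 1 of lactation, so no stage is used below. Strain, allele, any Cre driver and the animals' age were not stated in the labels used. The signal of Elf5, an ETS factor of luminal cells, was 12011, 8044 and 7244 in wild-type arrays 1 to 3 against 5616, 4361 and 3128 in KO arrays 1 to 3, so all KO arrays were below all wild-type arrays. This difference was -1.06 ± 0.32 on the log2 scale (SE, limma adjusted p = 0.109) and passed with the replicate number as a block (adjusted p = 0.0151). Whether the probe set reads the deleted part of the gene was not stated.

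Each ribosome joins 1 protein of nearly every kind to the ribosomal RNAs, so cells make these proteins in matched amounts. Their messages are short and abundant, and they are among the most strongly expressed of any tissue. Many begin with a C and a run of pyrimidines at the cap, the terminal oligopyrimidine (TOP) motif, through which the mTOR kinase and the RNA-binding protein Larp1 control their translation. Myc and RNA polymerase I drive ribosome production, and a secreting mammary gland depends on a large translation apparatus to make milk protein. Mammalian genomes also hold many processed pseudogenes of these genes, so that array probes are often shared.

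Start sites are shown first, because the TOP motif and the binding letters of ETS factors, the family of Elf5, are features the choice of members did not use. The RefSeq promoter table (GRCm38.p6) held 36 of the 41 members. Rpl7, Rpl8, Rps14, Rps20 and Rps29 had no entry. A start with C and then 4 bases each C or T was found in 8 of the 36 members (22.2%) and in 813 of 27025 genes with a promoter (3.01%). The run had to begin exactly at the annotated start, so a start annotated a few bases away was missed. A member not counted here may still carry a TOP motif. The windows of these 8, from 10 bases before the annotated start to 20 bases after it, are given with the pyrimidine run in capitals, which was 5 bases long in Rplp2 and 11 in Rpl35.
Rpl14 (chr9:120571507-120571536, plus strand): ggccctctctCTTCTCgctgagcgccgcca
Rpl35 (chr2:39005112-39005141, minus strand): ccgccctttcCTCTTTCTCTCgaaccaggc
Rpl38 (chr11:114668570-114668599, plus strand): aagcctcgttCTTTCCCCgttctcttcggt
Rplp2 (chr7:141447641-141447670, plus strand): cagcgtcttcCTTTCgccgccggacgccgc
Rps10 (chr17:27635225-27635254, minus strand): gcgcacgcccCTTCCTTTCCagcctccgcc
Rps18 (chr17:33955646-33955675, minus strand): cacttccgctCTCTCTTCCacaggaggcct
Rps27 (chr3:90213629-90213658, minus strand): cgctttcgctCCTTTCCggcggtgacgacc
Rps6 (chr4:86857348-86857377, minus strand): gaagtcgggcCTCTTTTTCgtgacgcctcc
Of these 8, Rpl14 had the most positive group difference of all members. Rpl38 and Rps10 were the lowest of the 8, at -0.54 and -0.53, against -0.86 in Rpl39, the lowest of all members. Median differences (KO minus wild type) on the log2 scale were -0.21 in the 8 and -0.31 in the 27 tested members without it, and 0.13 and 0.039 after quantile normalization, which gives all arrays one distribution.

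ETS factors recognise a GGAA core, and the longer string CCGGAAG was searched on both strands over the 250 bases before and 50 after each start. It was present in 17 of 36 members (47.2%) and in 9.93% of the 27025 genes. The E-box CACGTG, the site of Myc, was present in 4 members (11.1%) and in 8.09% of all genes. These shares were not tested against each other, and a match of letters is not a binding site. The 150 bases upstream of 4 members are shown with the ETS string in capitals: Rpl41, Rps2 and Rpl14 because they passed one of the tests described below, and Rps10 because its probe sets disagreed.
Rpl41 (chr10:128549169-128549318, minus strand): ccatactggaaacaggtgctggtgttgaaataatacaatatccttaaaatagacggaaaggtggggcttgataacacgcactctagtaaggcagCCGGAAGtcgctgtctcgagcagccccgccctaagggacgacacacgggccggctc
Rps2 (chr17:24719913-24720062, plus strand): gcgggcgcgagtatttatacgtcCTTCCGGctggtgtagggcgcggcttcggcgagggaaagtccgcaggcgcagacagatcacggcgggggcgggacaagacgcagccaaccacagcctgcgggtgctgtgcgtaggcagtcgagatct
Rps10 (chr17:27635245-27635394, minus strand): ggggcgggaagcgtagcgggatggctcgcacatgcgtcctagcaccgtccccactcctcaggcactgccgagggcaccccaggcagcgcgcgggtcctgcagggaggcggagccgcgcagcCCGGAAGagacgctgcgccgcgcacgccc
Rpl14 (chr9:120571367-120571516, plus strand): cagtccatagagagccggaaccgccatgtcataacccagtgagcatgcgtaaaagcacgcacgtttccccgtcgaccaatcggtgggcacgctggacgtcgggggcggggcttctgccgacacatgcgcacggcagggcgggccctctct
Rpl41 carried the string on its own strand and Rps2 on the opposite strand, while no copy lay in this stretch of Rpl14. Among tested members the median log2 difference was -0.25 in the 17 with the string and -0.30 in the 18 without, and 0.039 and 0.061 after quantile normalization.

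Signals of the probe sets fell into separate ranges. In 32 members the mean signal lay between 5817 (Rps19) and 15031 (Rps29), and 29 members were among the 100 genes with the highest mean signal. The other 9 read 1962 (Rpl37) or less, and 1 of them, Rps16, gave 0.3 to 5.8 in every array and was left out of the tests with all genes whose mean was below a signal of about 43.8. Probe sets differ in how well they bind, so a dim probe set does not show a scarce message. Among the chosen probe sets, 29 of 41 carried a mark (_a_, _s_ or _x_) in their name for sequence shared between transcripts. The _a_ mark stands for transcripts of the same gene, so not all of the 29 were marked as shared with other genes.

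**Figure D1:**
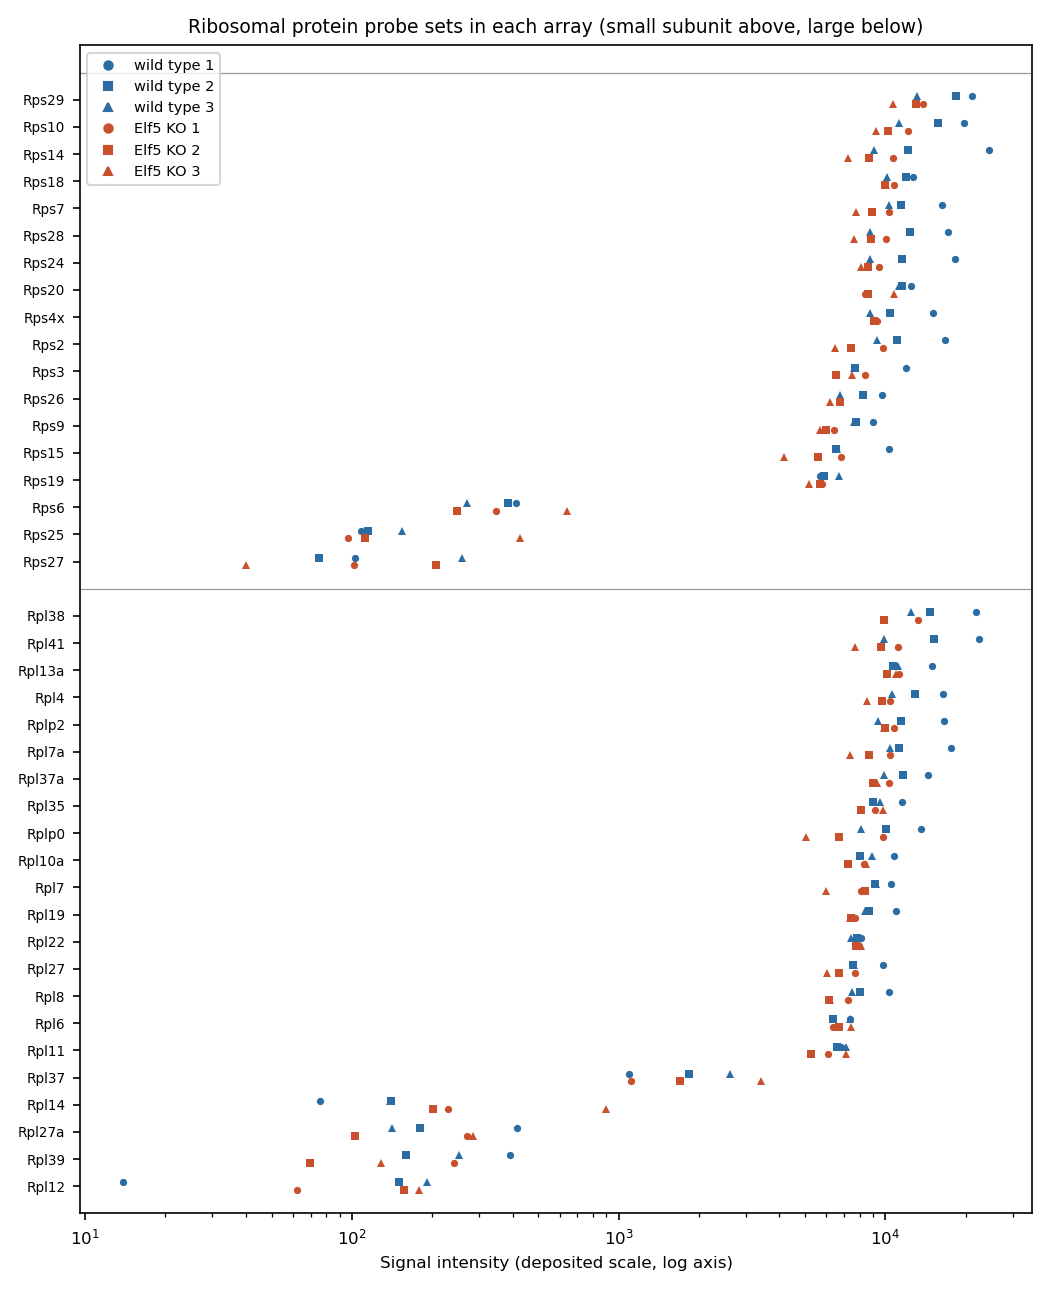
Signal intensity of each tested member (log axis) in 3 wild-type arrays (blue) and 3 Elf5 KO arrays (orange), with circles, squares and triangles for arrays 1, 2 and 3. The 32 bright members sit at the right, with wild-type array 1 highest for 28 of them, while 8 members with dim probe sets spread between 13.9 and 3419.

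In the deposited scaling most ribosomal protein probe sets read somewhat lower in the KO gland, with a median log2 difference over the 40 tested members of -0.31, but the median was 0.038 after quantile normalization, so its direction depended on the scaling. Of the 40 members 34 had a lower and 6 a higher mean (18 and 22 after quantile normalization), whereas 46.1% of all 10916 genes tested had a lower mean and their median was 0.063 (0.077 after quantile normalization). No member passed the threshold of adjusted p under 0.05 (limma, Benjamini-Hochberg over every tested gene), where 1.24% of all genes did, 1.13% higher and 0.11% lower. None passed after quantile normalization either, where 1.65% of all genes did. Only Rpl14 had an unadjusted p under 0.05, against 21.8% of all genes. Groups did not overlap for 9 members: in 8 (Rpl4, Rpl7, Rpl7a, Rpl8, Rpl19, Rps9, Rps20 and Rps26) all KO arrays were below all wild-type arrays, against 10.6% of all genes, and in Rpl14 all were above, against 16.7%. In RNA of a bulk gland fewer cells of a type and less RNA per cell cannot be told apart.

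The 32 bright members read highest in the array whose other top signals were also highest. Their median signal was 13141, 10512 and 8975 in wild-type arrays 1, 2 and 3 against 9393, 8479.9 and 7654 in KO arrays 1, 2 and 3. Wild-type array 1 was thus the highest and wild-type array 3 was below KO array 1, so the groups overlapped. The spiked-in Cre control, which does not come from the animals, read 27746, 19335 and 10208 in wild type against 11820, 12012 and 9854 in the KO. Wild-type array 1 held the highest value of 28 of the 32 bright members, and KO array 3 the lowest value of 19. Without wild-type array 1 the median over the 40 members was -0.22 rather than -0.31, and in replicate pairs 1, 2 and 3 it was -0.51, -0.31 and -0.16. After quantile normalization 15 of the 32 bright members were lower and 17 higher.

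**Figure D2:**
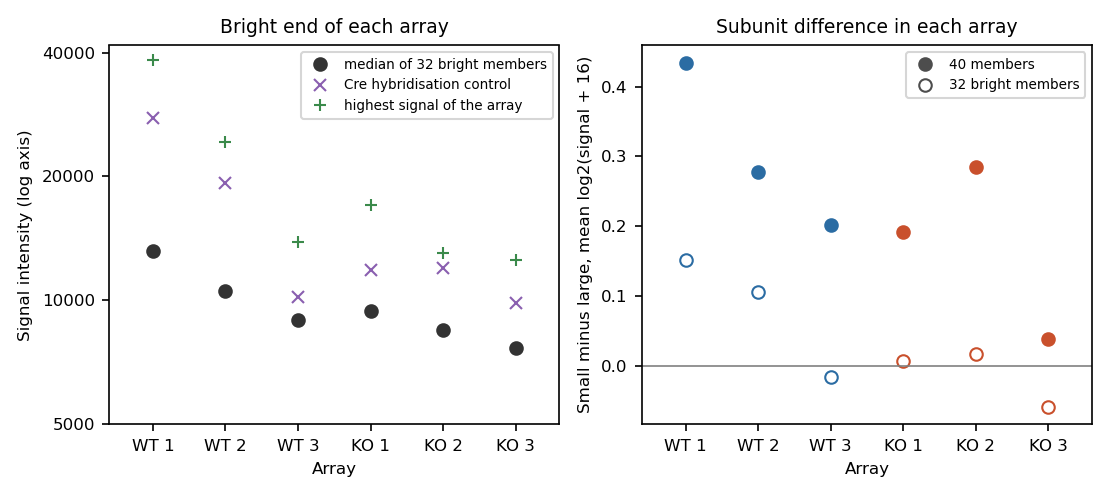
Left, per array, the median signal of the 32 bright members, the Cre hybridisation control and the highest signal (log axis); the 3 series share wild-type array 1 as their highest array. Right, mean log2(signal + 16) of small-subunit minus large-subunit members in each array, over 40 members (filled) and over the 32 bright ones (open), with wild type in blue and Elf5 KO in orange.

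RNA quality also differed between arrays. For Gapdh the signal of the 3' control probe set over that of the 5' one, near 1 for intact RNA, was 0.833 to 1.09 in wild type. KO array 1 was alike at 0.802, while KO arrays 2 and 3 gave 3.89 and 13.6. For Actb the wild-type arrays gave 1.20 to 2.04, KO array 1 gave 1.58, KO array 2 gave 1.87 and KO array 3 gave 21.0, so KO array 2 stood apart by Gapdh and not by Actb. The 4 arrays with a Gapdh ratio under 2 were the wild-type arrays and KO array 1 alone. Each value given for them here and below thus rests on 1 KO array. Over these 4 arrays the median of the 40 members was -0.25, and with the Gapdh ratio as a covariate over all arrays it was -0.27. Milk protein markers (5 of 5 measured) summed to 45971 to 139306 in wild type and 34876 to 63582 in the KO, with 2 passing downward in the paired fit, which takes the replicate number as a block. The median log2 difference of these milk markers was -0.66 in the deposited scaling but -0.056 after quantile normalization. Luminal markers (5 of 5, 1 passing upward in the paired fit) summed to 11630 to 16344 and 12282 to 20266, so the samples carried the transcripts of a secretory epithelium. Fibroblast markers (6 of 6, all with a higher mean, 1 passing upward and 3 in the paired fit) summed to 10733 to 17379 and 15323 to 31193. The sum over lymphocyte markers (6 of 7 measured, all with a higher mean, none passing but 3 upward in the paired fit, none at 0) was 413 to 564 in wild type and 736 to 1269 in the KO. Among macrophage markers 4 of 5 had a higher mean, with a median of 0.76, 1 passed upward and 2 in the paired fit. Their sum was 5179 to 8015 and 5969.8 to 7041, and it held Cd14, which differed by -0.80. Skeletal muscle markers (5 of 5, all with a higher mean, none passing but 3 upward in the paired fit) summed to 347 to 3878 and 1059.8 to 6809. Adipocyte markers (3 of 5 measured, all with a higher mean, median 0.56, none passing but 1 upward in the paired fit) summed to 14867 to 17844 and 17718 to 24543. Among 5 myoepithelial markers 2 had a higher and 3 a lower mean (median -0.24), with sums of 12215 to 15829 and 9255 to 13750.5. Among 5 endothelial markers 2 had a higher and 3 a lower mean (median -0.052), with sums of 960 to 1117 and 698 to 1480. None of these myoepithelial and endothelial markers passed in either fit. Over all genes 1.13% passed upward, and in the paired fit 7.7% passed upward and 4.53% downward. The part of these cell types in the ribosomal protein values was not tested.

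Between the subunits the groups overlapped: the small subunit read lower against the large one in the KO by about as much as arrays of a group differed. The median log2 difference was -0.39 over 18 small-subunit members and -0.27 over 22 large-subunit members, and 0.0072 and 0.063 after quantile normalization. In single arrays the mean of small-subunit members exceeded that of large-subunit members by 0.43, 0.28 and 0.20 in wild type against 0.19, 0.29 and 0.039 in the KO on the log2 scale. Means were 0.30 ± 0.12 for wild type against 0.17 ± 0.12 for the KO (SD, n = 3 each), a difference of -0.13, and KO array 2 lay above wild-type arrays 2 and 3. Over the 32 bright members alone the 3 wild-type values were 0.15, 0.11 and -0.016 and the 3 KO values 0.0077, 0.018 and -0.058, so each KO value was below the wild-type value of the same replicate number, while wild-type array 3 was below KO arrays 1 and 2. The difference of the subunit medians was negative in 23 of the settings run and positive in the other two. Averaging all probe sets of each gene turned the median small minus large difference from -0.12 to 0.072, and taking only probe sets without a mark for shared sequence gave 0.28. In that last setting every small-subunit gene but Rps15 (mean signal 6673) was read by a dim probe set, with a mean signal of 383 or less. Among the 32 bright members the log2 difference tended to be more negative at higher mean log2 signal (Pearson -0.45, Spearman -0.42). The part of signal level in the subunit difference was not tested.

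**Figure D3:**
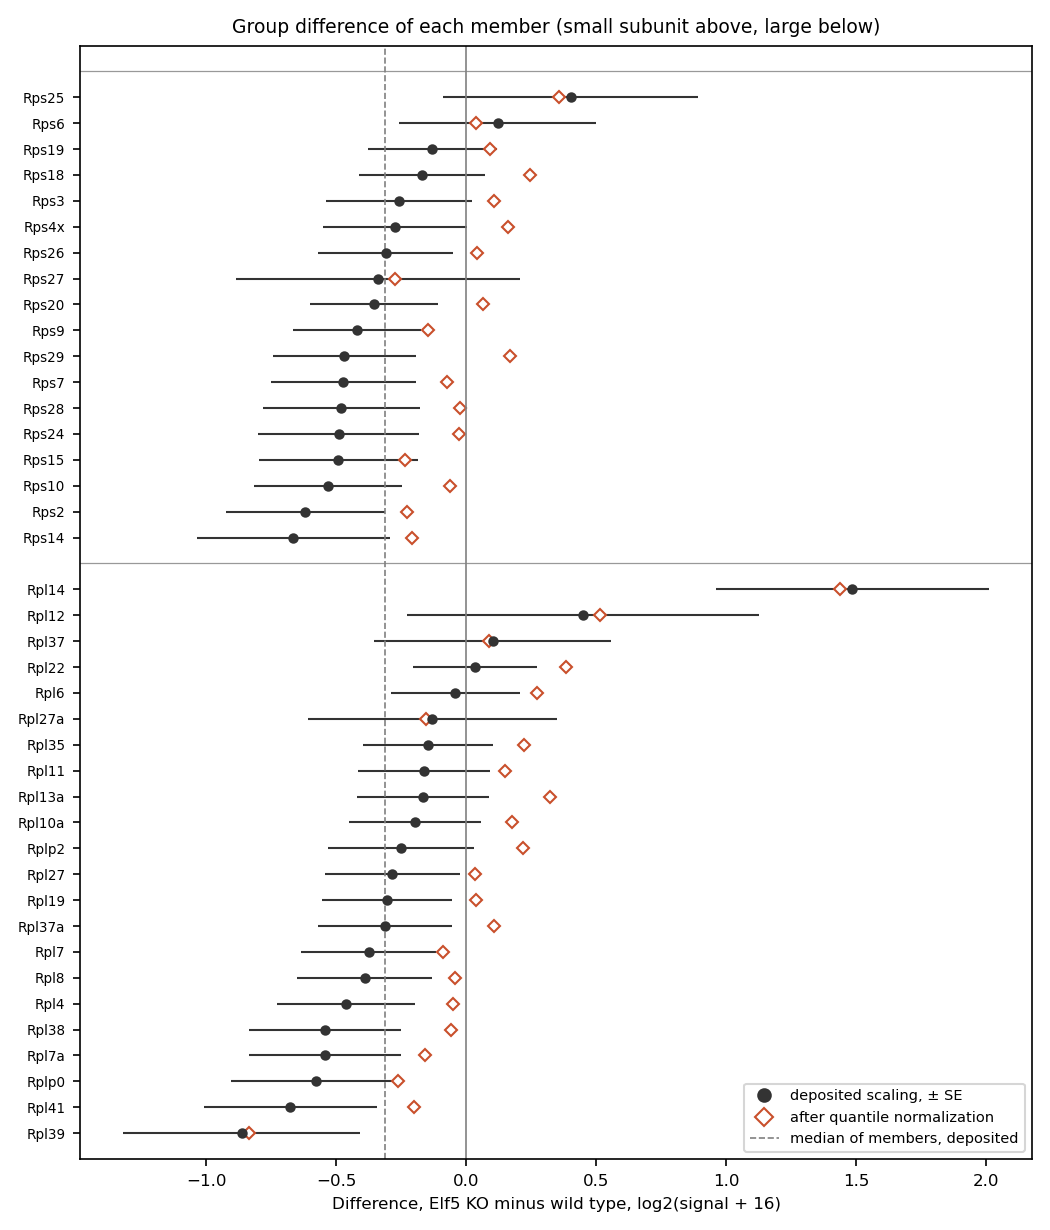
Group difference (Elf5 KO minus wild type, log2(signal + 16)) of each tested member, as black points with limma's standard error in the deposited scaling and as open diamonds after quantile normalization. The dashed line is the member median of -0.31; after quantile normalization the median was 0.038 and most diamonds sit about 0, with Rpl14 far to the right and Rpl39 far to the left in both.

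Rpl14, a protein of the large subunit, stood furthest from the rest. It read 76.0, 140 and 139 in wild type against 229, 202 and 894 in the KO, so all KO arrays were above all wild-type arrays and KO array 3 was far above the others. The log2 difference was 1.49 ± 0.52 (SE, n = 3 per group, limma adjusted p = 0.151), and 1.44 after quantile normalization. With the replicate number as a block, the paired fit, Rpl14 rose (adjusted p = 0.0422), as it did after quantile normalization with the block (adjusted p = 0.0432), where 12.4% of all genes passed, 8.22% of all genes upward. Over all alternatives its adjusted p lay between 0.0347 and 0.802. That paired call was lost without replicate 2 (1.99, adjusted p = 0.0838) and without replicate 3 (0.95, adjusted p = 0.0567). Without KO array 3 the unpaired difference was 0.83, with the Gapdh ratio as a covariate 0.69, and over the arrays with a ratio under 2 it was 0.91. Its only probe set is dim, with a mean signal of 280.1.

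Members were counted as outliers when their difference lay over 3 scaled median absolute deviations from the member median, that is below -1.05 or above 0.425 (log2). Rpl14 and Rpl12 met this and no member did so on the low side. Rpl12, which sits at the base of the ribosomal stalk, read 13.9, 149.7 and 192 in wild type against 62.2, 157 and 178 in the KO. Its groups overlapped, the difference of 0.45 ± 0.68 (SE, adjusted p = 0.717) was smaller than its error, and it was -0.43 without wild-type array 1, which held the lowest reading. Rps25, just inside the limit at 0.40 ± 0.49, read 108, 115 and 154 in wild type against 96.3, 112 and 425 in the KO, where KO array 3 alone was high. Without that array the Rps25 difference was -0.23.

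Rpl39, a very small protein that lines the exit tunnel of the large subunit, had the most negative difference. Its signals were 393, 159.7 and 252 in wild type against 242, 69.4 and 129 in the KO, with KO array 1 above wild-type array 2. The difference was -0.86 ± 0.46 (SE, adjusted p = 0.288), -0.84 after quantile normalization and -0.053 over the arrays with a Gapdh ratio under 2. It was lower in all 3 replicate pairs, by -0.66, -1.04 and -0.89, without passing in the paired fit (adjusted p = 0.0625). Without wild-type array 1 the difference was -0.56, and without KO array 2 it was -0.47. Rpl39 passed where arrays were weighted by their reliability (-1.18, adjusted p = 0.0362), a fit that called 24.1% of all genes, 9.63% downward. Over all alternatives the adjusted p of Rpl39 lay between 0.0362 and 0.996.

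The lowest bright members were Rpl41, Rps14, Rps2 and Rplp0. Rpl41, an extremely short basic protein, read 22322, 15139 and 9914 in wild type against 11101, 9607 and 7664 in the KO, or 59.9% of the wild-type mean, with KO array 1 above wild-type array 3. Rps2, a core protein of the small subunit, read 16682, 11017 and 9309 in wild type against 9814, 7395 and 6491 in the KO. Neither passed without the block: the log2 differences were -0.68 ± 0.33 for Rpl41 (SE, adjusted p = 0.264) and -0.62 ± 0.31 for Rps2 (SE, adjusted p = 0.266). Without wild-type array 1 they were -0.39 and -0.38. In the paired fit Rpl41 (adjusted p = 0.0402) and Rps2 (adjusted p = 0.0413) fell, but after quantile normalization their differences were -0.20 and -0.23 and passed in neither fit (adjusted p with the block 0.345 and 0.344). Over all alternatives the adjusted p lay between 0.0080 and 0.943 for Rpl41 and between 0.0231 and 0.958 for Rps2. In all, 1 member rose and 2 fell in the paired fit, where 12.2% of all genes passed, 7.7% upward and 4.53% downward. At an unadjusted p under 0.05 the paired fit held 17 members, against 32% of all genes. Without replicates 1, 2 and 3 the paired fit called 1, 0 and 9 members. The 1 was Rpl14, higher, where 16.6% of all genes passed and 8.8% upward. The 9 were all lower, where 15.4% passed and 5.64% downward. Among them were Rpl38, Rpl41, Rps2, Rps10, Rps14, Rps24 and Rps29. Without replicate 2 the share of all genes was 0.174%.

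Rps14, a small-subunit protein whose loss underlies a human anaemia, read 24379, 12139 and 9081 in wild type against 10656, 8684 and 7256 in the KO. Its difference of -0.67 ± 0.37 was -0.26 without wild-type array 1, which held the highest value. Rplp0 anchors the stalk through which the ribosome recruits elongation factors, and its transcript is a common reference in quantitative PCR. It read 13605, 10069 and 8081 in wild type against 9813, 6708 and 5041 in the KO, 67.9% of the wild-type mean, a difference of -0.58 ± 0.33 (SE, adjusted p = 0.320). Its difference was -0.26 after quantile normalization and -0.076 over the arrays with a Gapdh ratio under 2. Its KO signals ran in the reverse order of their Gapdh ratios, as they did in 19 of the 32 bright members. Its wild-type signals also fell from array 1 to array 3, as in 23 of the 32, while wild-type Gapdh ratios were 0.833 to 1.09. The part of RNA quality in these orders was not tested. The stalk protein Rplp2 read 16591, 11437 and 9399 in wild type against 10795, 9937 and 9832 in the KO, a difference of -0.25 ± 0.28 that was 0.22 after quantile normalization. Without wild-type array 1 the difference was -0.38 for Rplp0 and -0.027 for Rplp2, and without KO array 3 that of Rplp0 was -0.35.

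The other members singled out by high signal or small p, Rps29, Rps10 and Rpl38, are themselves bright members. Rps29, a zinc-binding small-subunit protein, read 21146, 18382 and 13126 in wild type against 13862, 13035 and 10634 in the KO. The difference of Rps29 was -0.47 ± 0.27 in the deposited scaling and 0.17 after quantile normalization. Rps10, at the head of the small subunit, and Rpl38, known for its part in axial patterning, differed by -0.53 ± 0.28 and -0.54 ± 0.29, and by -0.062 and -0.060 after quantile normalization. KO means of Rps10 and Rpl38 were 67.8% and 67.3% of wild type, and without wild-type array 1 their differences were -0.35 and -0.31. These 3 passed in none of the fits over all 6 arrays. They did pass in the paired fit without replicate 3 (limma adjusted p = 0.0213 to 0.0416), where 5.64% of all genes passed downward.

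Rps19, the protein most often mutated in Diamond-Blackfan anaemia, read 5681, 5858 and 6716 in wild type against 5793, 5666 and 5186 in the KO, with overlapping groups and a difference of -0.13 ± 0.25 (0.089 after quantile normalization). Rpl11, which binds the p53 regulator Mdm2 when ribosome assembly fails, differed by -0.16 ± 0.25 (0.15 after quantile normalization). The X-linked Rps4x read 15032, 10395 and 8772 in wild type against 9316, 9055 and 9154 in the KO, a difference of -0.28 ± 0.28 (0.16 after quantile normalization), and KO arrays 1 to 3 lay closer together than the wild-type arrays. Rps3, at the mRNA entry site, differed by -0.26 ± 0.28 (0.10 after quantile normalization). Without wild-type array 1 the differences of Rps4x and Rps3 were -0.058 and -0.045. Rps6, the substrate of S6 kinase downstream of mTOR, was read by a dim probe set at 412, 384 and 269 in wild type against 346, 248 and 638 in the KO, a difference of 0.12 ± 0.38 that was -0.24 without KO array 3. Rpl37 read 1096, 1834 and 2611 in wild type against 1114, 1701 and 3419 in the KO, and Rps27 read 103, 75.5 and 258 against 101.4, 207 and 40. In both the spread within a group exceeded the difference between the groups (0.10 ± 0.46 and -0.34 ± 0.55). Adjusted p-values of the members in this paragraph lay between 0.573 and 0.913.

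Probe sets of a single gene could point in opposite directions. Of 80 member probe sets past the signal minimum, 60 were lower and 20 higher in the KO, and none passed in a limma fit over all 17954 single-gene probe sets past the minimum, where 0.0% passed. At an unadjusted p under 0.05 it held 4 of the 80, against 18.6% of all. Of 18 genes with several, 9 had both signs. The 25 second probe sets with a mean signal over 5000 had a median of -0.27 with 5 higher, and the 15 dimmer ones a median of 0.15 with 9 higher. The widest gap was in Rps10. Its chosen probe set read 19665, 15717 and 11286 in wild type against 12194, 10226 and 9229 in the KO, whereas another, marked _x_, read 472, 1056 and 611 in wild type against 1199, 4804 and 7347 in the KO. That second probe set differed by 2.35 ± 0.64 (SE, adjusted p = 0.153), with all KO arrays above all wild-type arrays and the KO arrays ranked as their Gapdh ratios were (0.802, 3.89 and 13.6). The part of RNA quality in it was not tested.

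Rps24, Rps9, Rps7 and Rps15 showed the same kind of split. For Rps24 the chosen probe set differed by -0.49 and a dim one by 1.08, reading 91.9, 176 and 149 in wild type against 99.1, 408 and 645 in the KO. For Rps9 the values were -0.42 and 0.75, and the second probe set read 973, 1787 and 3591 in wild type against 1382, 3215 and 6811 in the KO, which overlapped. Rps9 by its chosen probe set was among the 8 members with all KO arrays below all wild-type arrays, at 8964, 7725 and 7609 against 6432, 5979 and 5695. For Rps7 the differences were -0.47 and 0.37 and for Rps15 -0.49 and 0.24. Without wild-type array 1 the chosen probe sets of Rps24, Rps7 and Rps15 differed by -0.20, -0.28 and -0.27. In 3 of these genes (Rps10, Rps24 and Rps9) the mean over all probe sets was positive, at 0.13, 0.17 and 0.053. Rpl41 was lower in all 4 of its probe sets, and its second bright probe set, at 12045, 7678 and 5940.1 in wild type against 5916, 4863 and 4282 in the KO, differed by -0.72 beside -0.68 for the chosen one.

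**Figure D4:**
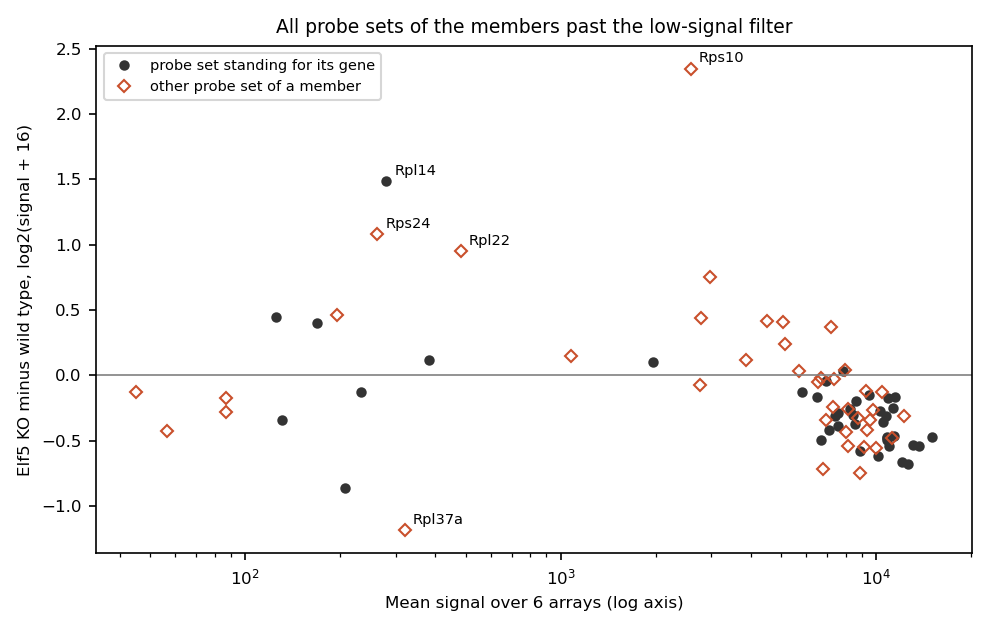
Group difference (Elf5 KO minus wild type, log2(signal + 16)) of the 80 member probe sets past the signal minimum against their mean signal (log axis), with the probe set standing for its gene in black and the others as open diamonds. The 57 probe sets with a mean signal over 5000 lie between -0.75 and 0.41, while dimmer ones scatter from -1.19 (Rpl37a) to 2.35 (Rps10).

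Ribosomal proteins outside the symbol rule and close paralogues had 8 tested genes of 14 listed, with a median of -0.12 (0.14 after quantile normalization). None passed (2 at an unadjusted p under 0.05, against 21.8% of all genes), and 2 rose in the paired fit, against 7.7% of all genes. Rpl39l, a paralogue of Rpl39 best known from testis, read 31.4, 35.7 and 43.5 in wild type against 155, 85.3 and 168 in the KO. Its difference was 1.4834 ± 0.32 (SE, adjusted p = 0.0594; paired fit, adjusted p = 0.0182), 1.59 after quantile normalization and 1.70 over the arrays with a Gapdh ratio under 2, opposite in sign to Rpl39. Rps4l, a paralogue of Rps4x, read 8.3, 66.9 and 91.6 in wild type against 265, 246 and 168 in the KO, a difference of 1.99 ± 0.51 (SE, adjusted p = 0.0799; paired fit, adjusted p = 0.0323). For both genes all KO arrays were above all wild-type arrays. Rps3a1, the third by p, differed by -0.37 ± 0.26 (0.16 after quantile normalization).

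Elongation factors and related genes, whose messages carry TOP motifs in several cases, had a median that stayed negative after quantile normalization. Means were lower for 8 of 9 tested genes and the median was -0.69 (-0.55 after quantile normalization and -0.32 over the arrays with a Gapdh ratio under 2). None passed (3 at an unadjusted p under 0.05, against 21.8% of all genes), and 5 fell in the paired fit, against 4.53% of all genes. Eef2, which moves the ribosome along the message, read 9989.5, 7944 and 7255 in wild type against 7304, 4753 and 3276 in the KO (-0.78 ± 0.33, paired fit adjusted p = 0.0395). Eif5a, which relieves stalls, read 12277, 11776 and 7747 in wild type against 8301, 4880 and 2787 in the KO (-1.10 ± 0.40, paired fit adjusted p = 0.0195). Eef1e1, a scaffold of the tRNA synthetase complex, was lower in all KO arrays (-1.480 ± 0.40, paired fit adjusted p = 0.0169). Eef1a1, which delivers tRNAs, and Tpt1 differed by -0.69 ± 0.35 and -0.66 ± 0.37, but by -0.16 and -0.13 after quantile normalization. In KO arrays 1, 2 and 3 Eef2 and Eif5a followed the reverse order of the Gapdh ratios, but both also fell from array 1 to array 3 in wild type. Differences of Eef2 and Eif5a over the arrays with a ratio under 2 were -0.19 and -0.32. Whether this list differed from the ribosomal proteins was not tested.

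Of 34 initiation factors none passed in either fit, 4 had an unadjusted p under 0.05 without the block and 23 had a lower mean (median -0.12). At that unadjusted threshold the share of all genes was 21.8%. The 3 with the smallest p, Eif2s2, Eif4e2 and Eif2b1, differed by -0.72 ± 0.29, -1.08 ± 0.44 and -0.99 ± 0.41. Among 53 ribosome assembly factors 30 were lower (median -0.072, and -0.40 over the arrays with a Gapdh ratio under 2). None passed (5 at an unadjusted p under 0.05, against 21.8% of all genes), and 1 fell in the paired fit, against 4.53% of all genes. This was Noc4l, a nucleolar protein of small-subunit assembly, at 639, 606 and 530.3 in wild type against 380.1, 243 and 47.7 in the KO (-1.70 ± 0.58, -0.61 over the arrays with a Gapdh ratio under 2). Rrp9 and Imp3 differed by -1.42 ± 0.56 and -0.73 ± 0.30. None of 13 genes of RNA polymerase I passed in either fit or had an unadjusted p under 0.05 without the block (median -0.057), with Polr1b at -0.68 ± 0.41, Polr1c at 0.80 ± 0.49 and Taf1b at -0.63 ± 0.42.

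The median of 22 Myc and mTOR regulators was -0.29 (-0.27 after quantile normalization and -0.096 over the arrays with a Gapdh ratio under 2). None passed (4 at an unadjusted p under 0.05, against 21.8% of all genes), and 1 fell in the paired fit, against 4.53% of all genes. This was Akt1s1, an inhibitory subunit of mTOR complex 1, which read 708, 926 and 608 in wild type against 509, 236 and 54.3 in the KO (-1.84 ± 0.61, paired fit adjusted p = 0.0374). Mlst8, another mTOR subunit, differed by -0.86 ± 0.32 and Mxd4, a Myc antagonist, by 1.15 ± 0.48. Akt1s1 differed by -0.52 over the arrays with a Gapdh ratio under 2. Mitochondrial ribosomal proteins, which serve a separate ribosome, were evenly split, with 37 of 76 higher and 39 lower and a median of -0.033 (-0.065 after quantile normalization). None of these genes passed in either fit (3 at an unadjusted p under 0.05 without the block, against 21.8% of all genes). Among them Mrps15 differed by 0.94 ± 0.29, Mrpl54 by -0.73 ± 0.31 and Mrpl38 by -0.98 ± 0.42.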

How the data were processed

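Total RNA of 6 samples was hybridised to one-colour Affymetrix arrays. Linear intensities of 45101 probe sets were deposited by the authors. Their processing notes name MAS5 and affy, without versions. In every array the deposited intensity, after trimming 2% at each end, averaged 150.0. No genome build is given in the sources used here. Array number limits the precision.

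Genes were named from probe sets with 1 annotated symbol, and the probe set with the highest mean log2(signal + 16) stood for each gene. All 41 member symbols matched a current gene table. Genes below the 40th percentile of that mean were left out, which kept 10916. Sample titles, which call the replicates biological, gave the groups. These were compared on log2(signal + 16), so fold changes of dim genes are understated, with limma 3.58.1 in R 4.3.3 (lmFit, eBayes with trend), tested on simulated data, and Benjamini-Hochberg adjustment over all genes. Errors of differences are limma's moderated SE.

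Replicate numbers are in the titles, with no stated pairing. Deviations of same-numbered arrays correlated at 0.46, 0.34 and 0.29, each over 0.1, so a fit with the number as a block is given where it changes a call. Wild-type array 3 and KO array 2, which differ in number, also exceeded 0.1 (0.15), and the other unmatched pairs were negative. These values do not establish a pairing.

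Members and gene lists were chosen with earlier results of these data known. Named members were those past 3 scaled median absolute deviations, the 5 highest and 5 lowest differences, the 3 smallest p per subunit, the 3 brightest and 3 dimmest, Rplp0, Rplp2, Rps3, Rps4x, Rps6, Rps19 and Rpl11, and the 5 widest splits between probe sets; others are named by non-overlap. Of each other list, genes passing a fit and the 3 smallest p are named. Alternatives were other pseudocounts, filters, normalizations, probe set choices, weights, RNA quality and left-out arrays.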

Additional observations from a re-analysis of the deposited data

How the results depend on the processing

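A total of 24 alternatives was run, of which 5 were chosen after seeing the data: the block with each replicate number left out, the block after quantile normalization, and probe sets ranked by linear signal. No member passed without the block except under array weights, where 1 did (Rpl39, -1.18). With the replicate block 3 passed (Rpl14 1.49, Rpl41 -0.68, Rps2 -0.62), after quantile normalization with the block 1 (Rpl14, 1.44), and without replicates 1, 2 and 3 in the block 1, 0 and 9. Leaving out 1 array at a time without the block gave 0 to 0 calls. The block changed no other member's call.

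The member median of -0.31 became 0.038 after quantile normalization with or without the block and -0.13 over the 17 members with an unmarked probe set, and lay between -0.43 and -0.22 with 1 array left out. The mean over probe sets gave -0.20. Median centring shifted all genes by -0.11 and gave -0.42. The small minus large difference of -0.12 became 0.072 with the mean over probe sets and 0.28 with unmarked probe sets, and lay between -0.19 and -0.048 with 1 array left out. Unmarked probe sets of the small subunit were dim, apart from that of Rps15.

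Of 540 values of 23 named members under alternatives, 483 kept direction and side of the threshold and 44 changed sign, none of them a passing value. After quantile normalization, with and without the block, signs turned for Rpl11 (0.15), Rplp2 (0.22), Rps19 (0.089), Rps29 (0.17), Rps3 (0.10) and Rps4x (0.16). Dim members turned with the Gapdh covariate (Rpl12 -0.040, Rpl37 -0.59, Rps25 -0.47, Rps27 0.11, Rps6 -0.26), over the arrays with a Gapdh ratio under 2 (Rpl12 -0.37, Rpl37 -0.64, Rps25 -0.32, Rps6 -0.011), under array weights (Rpl37 -0.15, Rps25 -0.037, Rps27 0.48, Rps6 -0.31) and under median centring (Rpl37 -0.0069). The mean over probe sets turned Rps10 (0.13), Rps24 (0.17) and Rps9 (0.053), and unmarked probe sets turned Rps24 (1.08) and Rps3 (0.46), each reading another probe set. With 1 array left out, Rpl12 ranged from -0.43 to 0.97, Rpl37 from -0.33 to 0.47, Rps25 from -0.23 to 0.76, Rps27 from -0.83 to 0.17 and Rps6 from -0.24 to 0.41. With 1 replicate number left out of the block, the ranges were -0.021 to 0.72, -0.042 to 0.21, -0.087 to 0.67, -1.15 to 0.63 and -0.42 to 0.48. Over the arrays with a Gapdh ratio under 2 the lone KO array is assumed to vary like the wild type. The causes were not tested, apart from these differences of construction.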

Other observations

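Many ribosomal protein probe sets are annotated to several genes and were left out of the comparisons above. There were 110 such probe sets with 1 symbol that met the rule for members, among them 27 ribosomal protein genes with no probe set of their own. Of the 99 past the signal minimum, 61 were lower and 38 higher in the Elf5 KO gland, with a median log2 difference of -0.18. Of the 71 with a mean signal over 5000, 52 were lower, with a median of -0.27, beside -0.37 for the 32 bright members. These values are in the deposited scaling, and no gene is named from them.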
